A study of Homo sapiens with 42 samples.

Results

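The mRNAs of 10 heterogeneous nuclear ribonucleoproteins (hnRNPs) were followed through 7 deposited tables of A-to-G changes in RNA. The members were HNRNPA1, HNRNPA2B1, HNRNPA3, HNRNPC, HNRNPD, HNRNPDL, HNRNPH1, HNRNPK, HNRNPM and HNRNPU, and a site belonged to a member when the gene named beside it in a table was that symbol alone. By this rule the members held 2475 of 371699 called sites with ERM, 4863 of 907935 with NES and 5749 of 574863 with NLS in poly(A) RNA of HEK293T cells. They held 4348 of 945447 sites with NES and 5324 of 560441 with NLS in poly(A) RNA of K562 cells, and 1584 of 345061 with NES and 2776 of 340436 with NLS in rRNA-depleted RNA of HEK293T cells. Every member site lay inside the RefSeq interval of its gene. The study expressed TadA-8e, an engineered bacterial tRNA adenosine deaminase, from plasmids that held it at the endoplasmic reticulum membrane (ERM), in the cytoplasm (NES, a nuclear export signal) or in the nucleus (NLS, a nuclear localisation signal). HEK293T, a human embryonic kidney line that carries the SV40 T antigen, was transfected by lipofection, and K562, a human leukaemia line, was electroporated; both were wild type. GFP-positive cells were sorted, control cells received a GFP plasmid, and RNA was selected by its poly(A) tail or freed of rRNA before stranded libraries were made. Each group had 2 libraries whose origin from separate cultures is not stated in the labels, so p-values here measure the spread between libraries only, which may be technical.

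TadA-8e acts on adenosines in single strands, and the inosine it leaves is read as guanosine, so the rate at a site is the share of reads that show G. The hnRNP proteins bind nascent and mature transcripts and act in splicing, export, stability and translation. hnRNP A1, A2/B1 and A3 are close relatives that bind splicing silencers, and hnRNP D and its relative hnRNP DL bind AU-rich elements. hnRNP C packages nascent transcripts and binds runs of uridine, hnRNP H1 binds runs of guanosine, hnRNP K binds runs of cytidine through KH domains, hnRNP M is a splicing regulator, and hnRNP U is a scaffold protein of chromatin. Several hnRNP genes, HNRNPDL and HNRNPA2B1 among them, are known to regulate their own transcripts through alternative splicing. Some introns that are kept in an RNA, but not all, hold it in the nucleus until they are removed.

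The adenosines that were read can be shown for the starts of the transcripts, where RefSeq promoter windows on GRCh38.p14 cover the first 50 bases. Of the 10 members, 9 had such a window and 7 had called sites in it, 39 sites in all. The strongest site of a member was the one with the highest mean rate in any table. It is shown for the 5 members where it was called in at least 5 of the 7 tables. The sequences give 10 bases on each side where the window allows, with the changed adenosine in capitals. They lie at chr7:26200733-26200753 (minus strand, adenosine at base 4 of the transcript) for HNRNPA2B1, chr2:177212798-177212818 (plus strand, base 15) for HNRNPA3, chr4:82373969-82373989 (minus strand, base 13) for HNRNPD, chr9:83980566-83980579 (minus strand, base 47) for HNRNPK and chr19:8444986-8445006 (plus strand, base 22) for HNRNPM.
HNRNPA2B1: tagcggcagtAgcagcagcgc
HNRNPA3: aaatggaggtAaaaccgccgc
HNRNPD: cggccattttAggtggtccgc
HNRNPK: agacgccattAtcc
HNRNPM: agacgcggagAaaatggcggc

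The HNRNPA3 start site separated the constructs in poly(A) RNA. Its rate was 1.28% and 2.05% with ERM, 1.40% and 1.87% with NES and 6.41% and 6.43% with NLS in poly(A) RNA of HEK293T. K562 libraries read 1.25% and 2.13% with NES and 8.38% and 7.95% with NLS. Both NLS libraries were above every NES and ERM library in both lines. In rRNA-depleted RNA the NLS libraries read 20.1% and 14.1%, while the NES table of that RNA did not list the site. The site was picked by this rRNA-depleted NLS rate, its highest in any table, so that rate adds no separate support. The HNRNPD site did not separate them in HEK293T, where it read 28.8% and 13.2% with ERM, 26.1% and 23.1% with NES and 25.1% and 27.6% with NLS, and the libraries of the 3 constructs overlapped. In K562 it read 33.9% and 42.3% with NES and 23.2% and 25.4% with NLS, with no overlap. At the HNRNPA2B1 site NES was above NLS, with 19.5% and 19.8% against 11.7% and 13.7% in HEK293T and 20.3% and 26.0% against 10.7% and 7.32% in K562. A T stood before the adenosine in 4 of these 5 sequences by the window's letters. Over all start-window sites of the members in HEK293T NES libraries, the 5 sites after T had a median rate of 10.9% and the 20 sites after another base one of 1.93%. With NLS the medians were 9.12% over 6 sites and 1.24% over 21 sites. These are descriptions of a few sites that share transcripts, with no test.

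The tables hold a rate for each library and no read counts, so the depth behind a site is unknown and no counting interval can be given. The mean rate over all called sites was 9.09% and 8.90% with ERM, 11.1% and 11.1% with NES and 8.65% and 8.95% with NLS in HEK293T poly(A) RNA, and 13.5% and 13.6% with NES and 10.1% and 10.3% with NLS in K562. In rRNA-depleted RNA the NES libraries stood apart from each other, at 17.6% and 21.4%, and the NLS libraries read 18.9% and 19.0%. All 10 listed erythroid and K562 marker genes, such as HBG1 and GATA1, had called sites in both K562 tables and none had any in the 5 HEK293T tables. Of the genes listed for HEK293T, NEFM and NEFL had sites in every HEK293T table and none in K562, while PAX2 had none in any table and LHX1 had them in rRNA-depleted RNA only. Control libraries enter the tables only through the authors' adjusted p, and their rates were not analysed here.

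The members with the most sites differed by construct. In HEK293T poly(A) RNA, HNRNPH1 had 198 sites with ERM, 372 with NES and 912 with NLS, and HNRNPA1 had 146 with ERM, 304 with NES and 606 with NLS. HNRNPU, the member with the most NES sites, had 422 with ERM, 871 with NES and 752 with NLS. Most genes ran the other way from HNRNPH1 and HNRNPA1: the ratio of NES to NLS sites had a median log2 of 0.91 over 7611 genes, against -1.29 for HNRNPH1 and -0.995 for HNRNPA1. Of those genes, 12.9% had fewer NES than NLS sites, 2.19% had a lower ratio than HNRNPH1 and 3.04% a lower one than HNRNPA1. HNRNPDL followed with 352 NES and 527 NLS sites, and HNRNPA2B1 with 500 and 609, HNRNPA3 with 506 and 582 and HNRNPK with 556 and 570 also had fewer NES than NLS sites. HNRNPC (649 NES, 596 NLS), HNRNPD (360 NES, 281 NLS), HNRNPM (393 NES, 314 NLS) and HNRNPU had more NES sites, all with ratios under the median gene. Sites were called over both libraries together, so each of these is a single number with no spread.

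K562 gave nearly the same order. HNRNPH1 had 305 NES and 977 NLS sites there and HNRNPA1 349 NES and 655 NLS sites. HNRNPDL had 328 NES and 531 NLS sites, HNRNPA3 395 and 595, and HNRNPA2B1 536 and 620. HNRNPK, with 488 NES and 465 NLS sites, joined HNRNPC (493 and 325), HNRNPD (407 and 301), HNRNPM (368 and 337) and HNRNPU (679 and 518) among the members with more NES sites. In rRNA-depleted HEK293T RNA the 10 members had from 42 to 298 NES sites and from 62 to 550 NLS sites, with HNRNPH1 at 141 NES and 550 NLS sites and HNRNPA1 at 93 NES and 300 NLS sites. HNRNPC (289 NES, 286 NLS) and HNRNPD (66 NES, 62 NLS) were the only 2 members there with more NES than NLS sites. Among genes with at least 20 sites over both constructs, 11.5% of 7348 had fewer NES than NLS sites in K562. In rRNA-depleted RNA this share was 39.9% of 5806 genes, so the counts of members stand against unlike backgrounds.

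In poly(A) RNA of HEK293T, many NLS sites of 5 members lay in stretches without any NES site. An NLS site was counted as set apart when it was over 100 bases from every NES site of the gene. These were 344 of 912 NLS sites of HNRNPH1 (37.7%), 174 of 606 of HNRNPA1 (28.7%), 108 of 609 of HNRNPA2B1 (17.7%), 79 of 527 of HNRNPDL (15.0%) and 71 of 570 of HNRNPK (12.5%). The other 5 members had almost none in this RNA: 1 site in HNRNPA3, 3 each in HNRNPD and HNRNPU, and 0 in HNRNPC and HNRNPM. Among 3345 genes with at least 50 NLS sites, 56.7% had no such site and 9.96% had a share of 10% or more. At a distance of 200 bases, chosen after seeing the data, the shares of HNRNPA2B1 (7.39%), HNRNPDL (5.69%) and HNRNPK (7.89%) were under 10%. In K562 the shares were 44.8% in HNRNPH1, 30.8% in HNRNPA1, 20.3% in HNRNPDL, 17.3% in HNRNPA2B1, 9.41% in HNRNPA3, 9.03% in HNRNPK, 6.64% in HNRNPD and 5.02% in HNRNPU, and 0 in HNRNPC and HNRNPM, where 12.1% of 3252 genes had 10% or more. In rRNA-depleted RNA the split was not seen: the shares were 43.5% in HNRNPH1, 43.2% in HNRNPA2B1, 26.7% in HNRNPA3, 25.7% in HNRNPA1, 21.8% in HNRNPDL, 20.1% in HNRNPU, 15.2% in HNRNPK, 14.4% in HNRNPM, 6.45% in HNRNPD and 6.29% in HNRNPC, where 29.0% of 2015 genes had 10% or more. HNRNPA3 had only 42 NES sites in rRNA-depleted RNA. Of its 31 set-apart sites there, 28 were called with NES in HEK293T poly(A) RNA, as were 15 of the 78 of HNRNPU. Set-apart sites of these members in rRNA-depleted RNA were thus not all out of reach of NES. The bars by relation to NES sites show both lines and rRNA-depleted RNA.

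**Figure D1:**
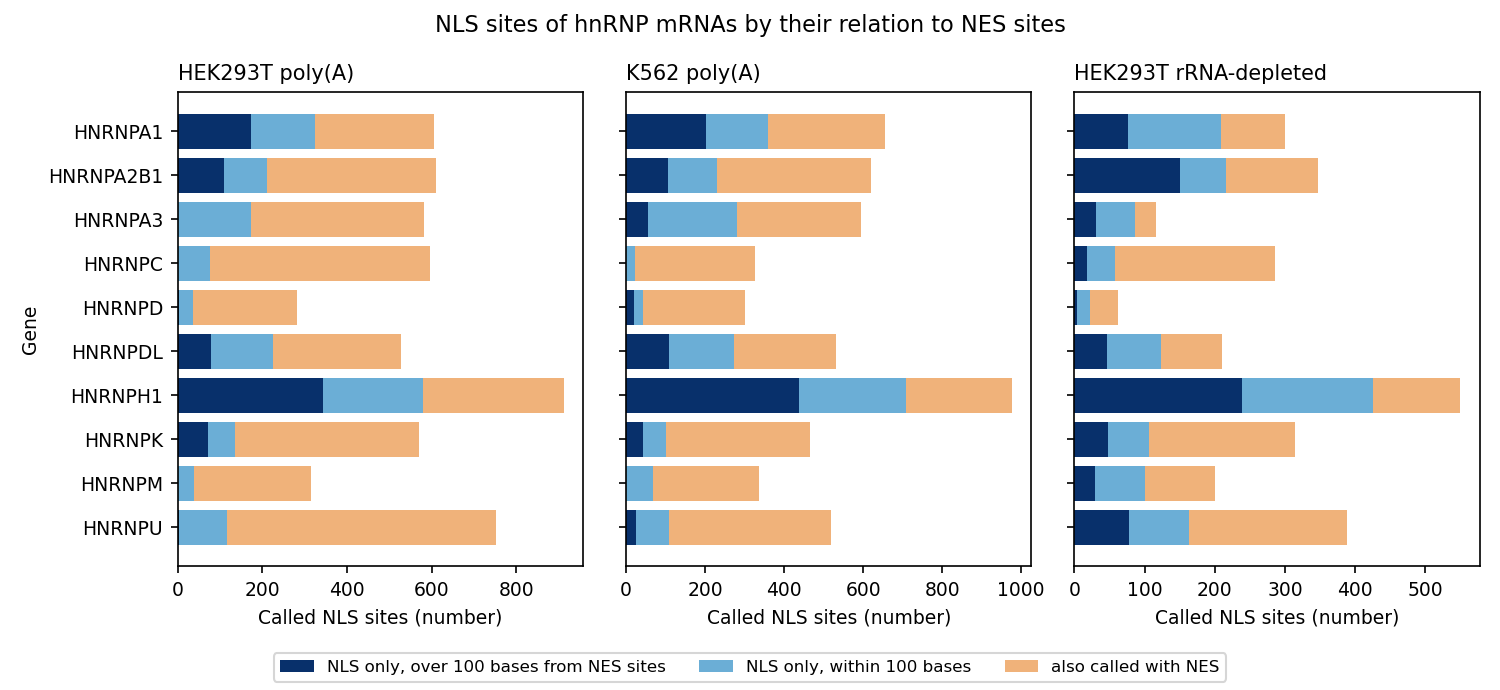
Number of called NLS sites of each member in the 3 kinds of RNA, split into those over 100 bases from any NES site, other sites not called with NES, and sites also called with NES. HNRNPH1 has the longest dark bar in each panel, and HNRNPC and HNRNPM have none in poly(A) RNA.

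Many of these positions were called again with NLS in K562, and fewer in rRNA-depleted RNA. Of the 783 set-apart NLS sites of the members in HEK293T poly(A) RNA, 672 (85.8%) were called with NLS in K562 and 229 (29.2%) with NLS in rRNA-depleted HEK293T RNA. Over all 5749 NLS sites of the members these shares were 78.7% and 38.9%, and over all 574863 NLS sites of any gene 63.0% and 37.3%. No test of these differences was made. Across the other tables with no NLS, 1 was called with ERM, 1 with NES in K562 and 0 with NES in rRNA-depleted RNA. The share found again in K562 was 94.8% for HNRNPA1, 89.8% for HNRNPH1, 83.5% for HNRNPDL, 82.4% for HNRNPA2B1 and 52.1% for HNRNPK. Of the 720 sites set apart in rRNA-depleted RNA, 338 (46.9%) were called with NLS in HEK293T poly(A) RNA, against 80.7% of all 2776 NLS sites of the members there, and 60 were called with NES in poly(A) RNA.

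Rates at the set-apart sites were above those at the sites shared with NES in both NLS libraries of HEK293T. HNRNPA1 read 15.3% and 15.1% at set-apart sites, against 1.87% and 2.03% at shared sites. HNRNPH1 read 12.4% and 13.5%, against 4.78% and 5.18%. HNRNPA2B1 read 18.2% and 18.8%, against 3.38% and 3.67%, and HNRNPDL 16.6% and 17.5%, against 5.56% and 5.92%. HNRNPK had the widest gap, with 28.1% and 30.9% at set-apart sites and 3.00% and 3.29% at shared sites. In each of these 5 members the libraries' values for the 2 classes of sites did not overlap. The number of reads behind either class of sites is unknown.

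**Figure D2:**
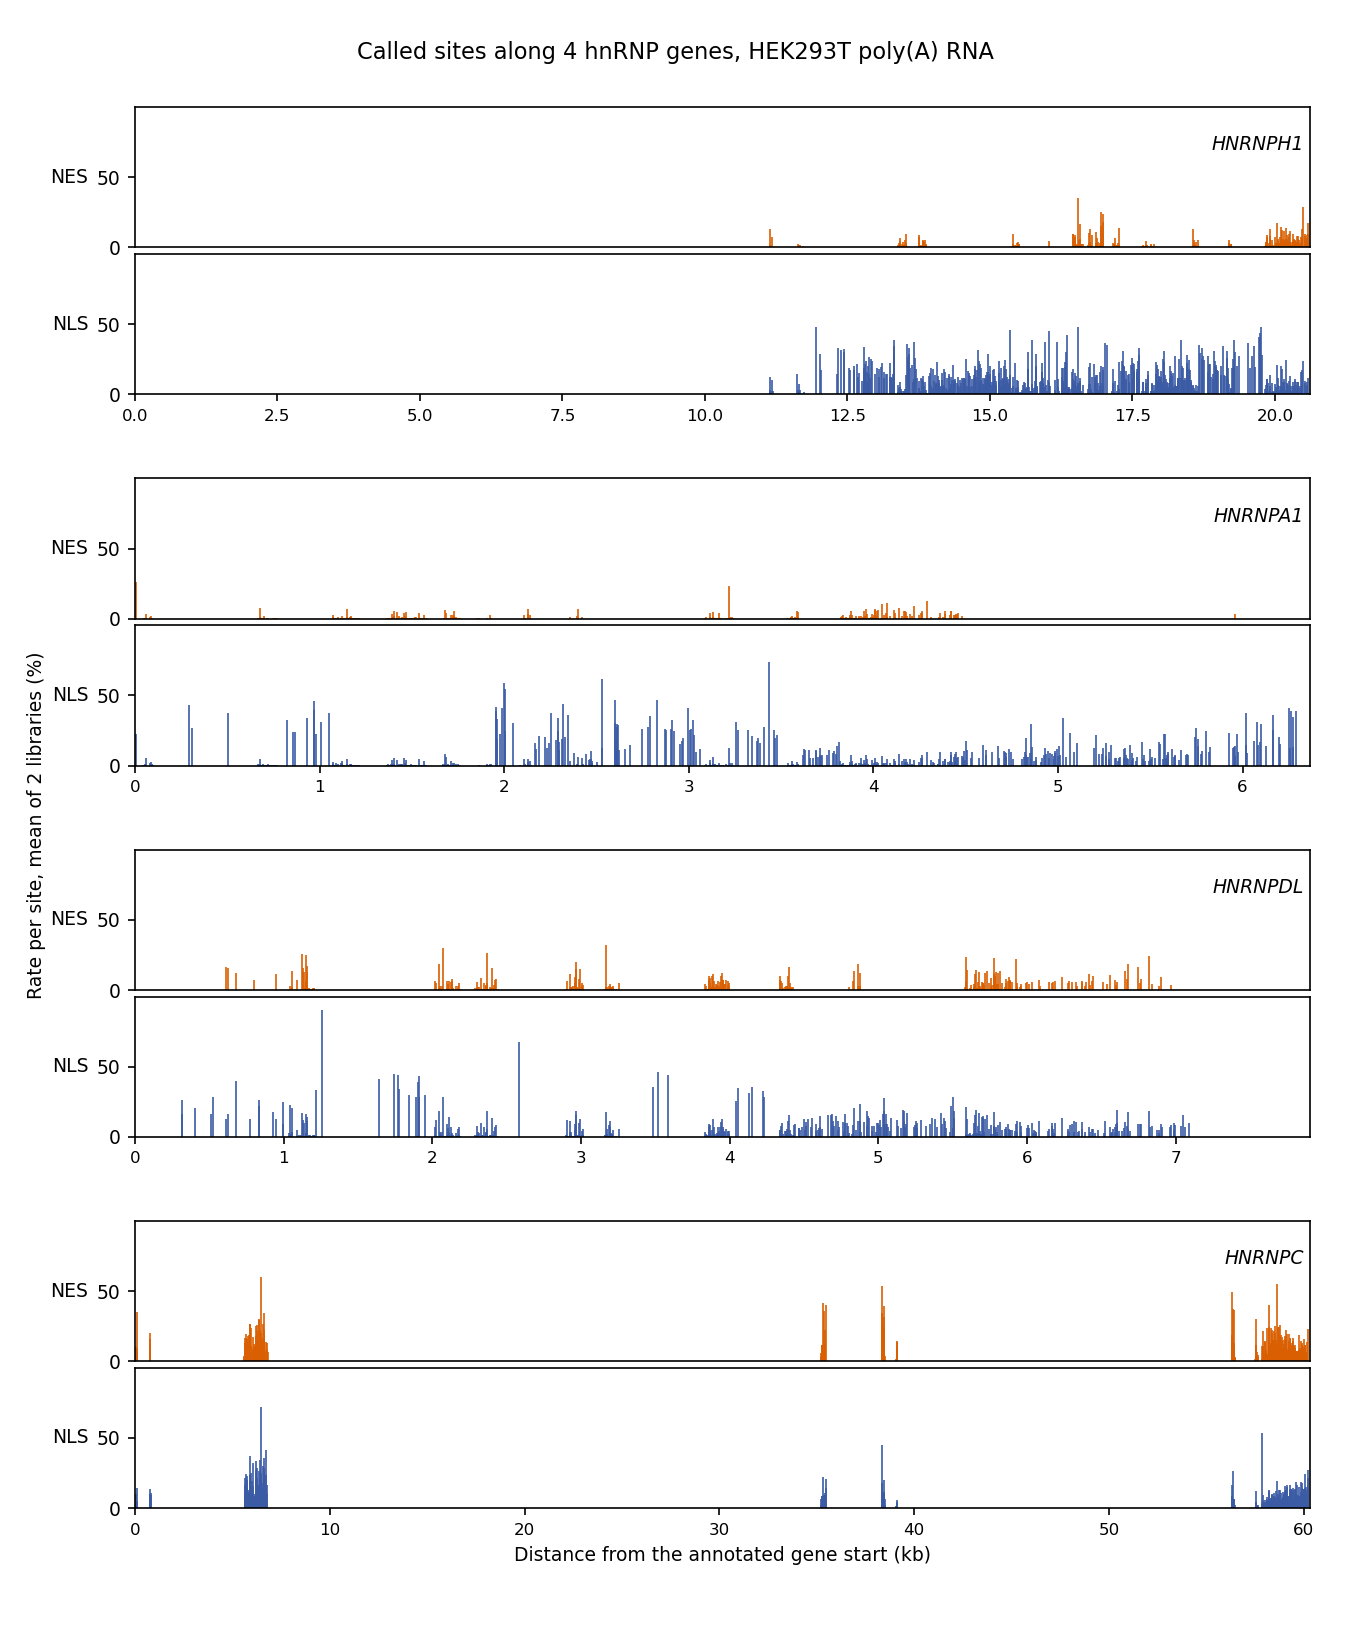
Mean rate of each called site in HEK293T poly(A) RNA along HNRNPH1, HNRNPA1, HNRNPDL and HNRNPC, with NES above NLS, against the distance from the annotated gene start in kb. NLS sites fill the gaps between groups of NES sites in the upper 3 genes, and in HNRNPC the sites of both constructs lie in the same few places.

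Between neighbouring NES sites, 18 stretches of the members held at least 20 NLS sites, 926 NLS sites together: 8 stretches in HNRNPH1, 3 in HNRNPA1, 3 in HNRNPA2B1, 2 in HNRNPDL and 2 in HNRNPK. The fullest was 1501 bases of HNRNPH1 (chr5:179619392-179620892, minus strand). It held 150 NLS sites in HEK293T, 176 in K562 and 46 in rRNA-depleted RNA, and no site in any NES or ERM table. Mean NLS rates over it were 9.94% and 11.8% in HEK293T and 12.4% and 13.3% in K562. In HNRNPA1, chr12:54285204-54286683 (1480 bases, plus strand) held 127 NLS sites in HEK293T, 133 in K562 and 17 in rRNA-depleted RNA, and none with NES or ERM. In HNRNPDL, chr4:82424878-82425582 (705 bases, minus strand) held 57, 73 and 17 NLS sites in the same libraries and none with NES or ERM. HNRNPK had fewer sites at higher rates: chr9:83975505-83976995 (1491 bases, minus strand) held 42 NLS sites in HEK293T at 30.7% and 31.8% and 32 in K562 at 34.2% and 36.6%, with none in the NES and ERM tables. Not every stretch was empty of NES sites in K562. The HNRNPA2B1 stretch chr7:26191124-26191571 held 47 NLS sites in HEK293T and 52 in K562, and 10 NES sites in K562 at a mean of 8.15%. Another of that gene, chr7:26191573-26191877, held 3 NES sites in K562. The HNRNPA1 stretches chr12:54283149-54283812 and chr12:54284317-54284549 held 4 and 1. The other HNRNPK stretch, chr9:83970902-83971275, held 21 NLS sites in HEK293T, and 1 NLS and 1 NES site in K562. Gene intervals but no exons were at hand, so whether these stretches are introns, exons or untranslated regions was not analysed here.

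Over the sites that both constructs reached, the cytoplasmic and nuclear enzymes were compared directly in HEK293T poly(A) RNA. Shared site rates were averaged per gene and library, and a log2 change is given relative to the median gene of each library. After that centring 7 of the 10 members were lower with NES than with NLS and 1, HNRNPK, was higher (limma, Benjamini-Hochberg adjusted p under the threshold of 0.05). Over all 6739 genes tested, 30.7% were lower and 36.7% higher. The members' median change was -0.27, beside 0.04 over all genes. Without centring the median gene was 0.66 higher with NES, 6 members were higher and 2 lower, and so were 77.8% and 6.11% of all genes.

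HNRNPH1 was the member most shifted toward NLS. It averaged 3.63% and 3.64% over 333 shared sites with NES, and 4.78% and 5.18% with NLS. Both NES libraries were below both NLS libraries as deposited, and the log2 change was -1.07 ± 0.03 (SE; limma adjusted p = 2e-26), with 3.07% of genes lower; without centring it was -0.45. In the A group, HNRNPA3 had 4.50% and 4.16% with NES and 4.73% and 4.86% with NLS, a change of -0.77 ± 0.03 (limma adjusted p = 3e-22) that stayed negative without centring (-0.15). HNRNPA1 had the lowest rates of all members, 1.86% and 1.85% with NES and 1.87% and 2.03% with NLS, and changed by -0.69 ± 0.04 (limma adjusted p = 2.5e-19). Without centring its libraries were nearly level, at -0.07 (limma adjusted p = 0.2). HNRNPA2B1, with 4.91% and 4.89% with NES and 3.38% and 3.67% with NLS, was higher with NES as deposited (0.47) and lower relative to the median gene (-0.15 ± 0.03, limma adjusted p = 6.9e-05).

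HNRNPDL and HNRNPD, which lie on the same strand of chromosome 4, differed from each other. HNRNPDL read 5.32% and 5.45% with NES and 5.56% and 5.92% with NLS, a change of -0.71 ± 0.03 (limma adjusted p = 3.3e-20; -0.09 without centring, limma adjusted p = 0.073). HNRNPD read 6.50% and 6.26% with NES and 3.99% and 3.93% with NLS, and its change of 0.07 ± 0.04 relative to the median gene did not pass (limma adjusted p = 0.13), but did without the first NLS library (0.11, limma adjusted p = 0.038), with no filter on sites (0.14, 0.0035) and, with the opposite sign, with the median of site rates (-0.14, 0.043); as deposited it was 0.69 higher with NES. HNRNPC, the member with the highest shared rates, read 7.90% and 7.82% with NES and 6.22% and 6.55% with NLS. It was lower relative to the median gene (-0.32 ± 0.03) and higher as deposited (0.30), and HNRNPU changed the same way (-0.21 ± 0.03, and 0.41 as deposited). HNRNPK read 5.42% and 5.31% with NES and 3.00% and 3.29% with NLS, a change of 0.15 ± 0.03 (limma adjusted p = 3.5e-05). HNRNPM read 5.09% and 5.13% with NES and 3.21% and 3.46% with NLS, which was level with the median gene (-0.01 ± 0.04, limma adjusted p = 0.89) and 0.62 as deposited. The median of site rates called HNRNPM lower (-0.17, limma adjusted p = 0.0075).

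**Figure D3:**
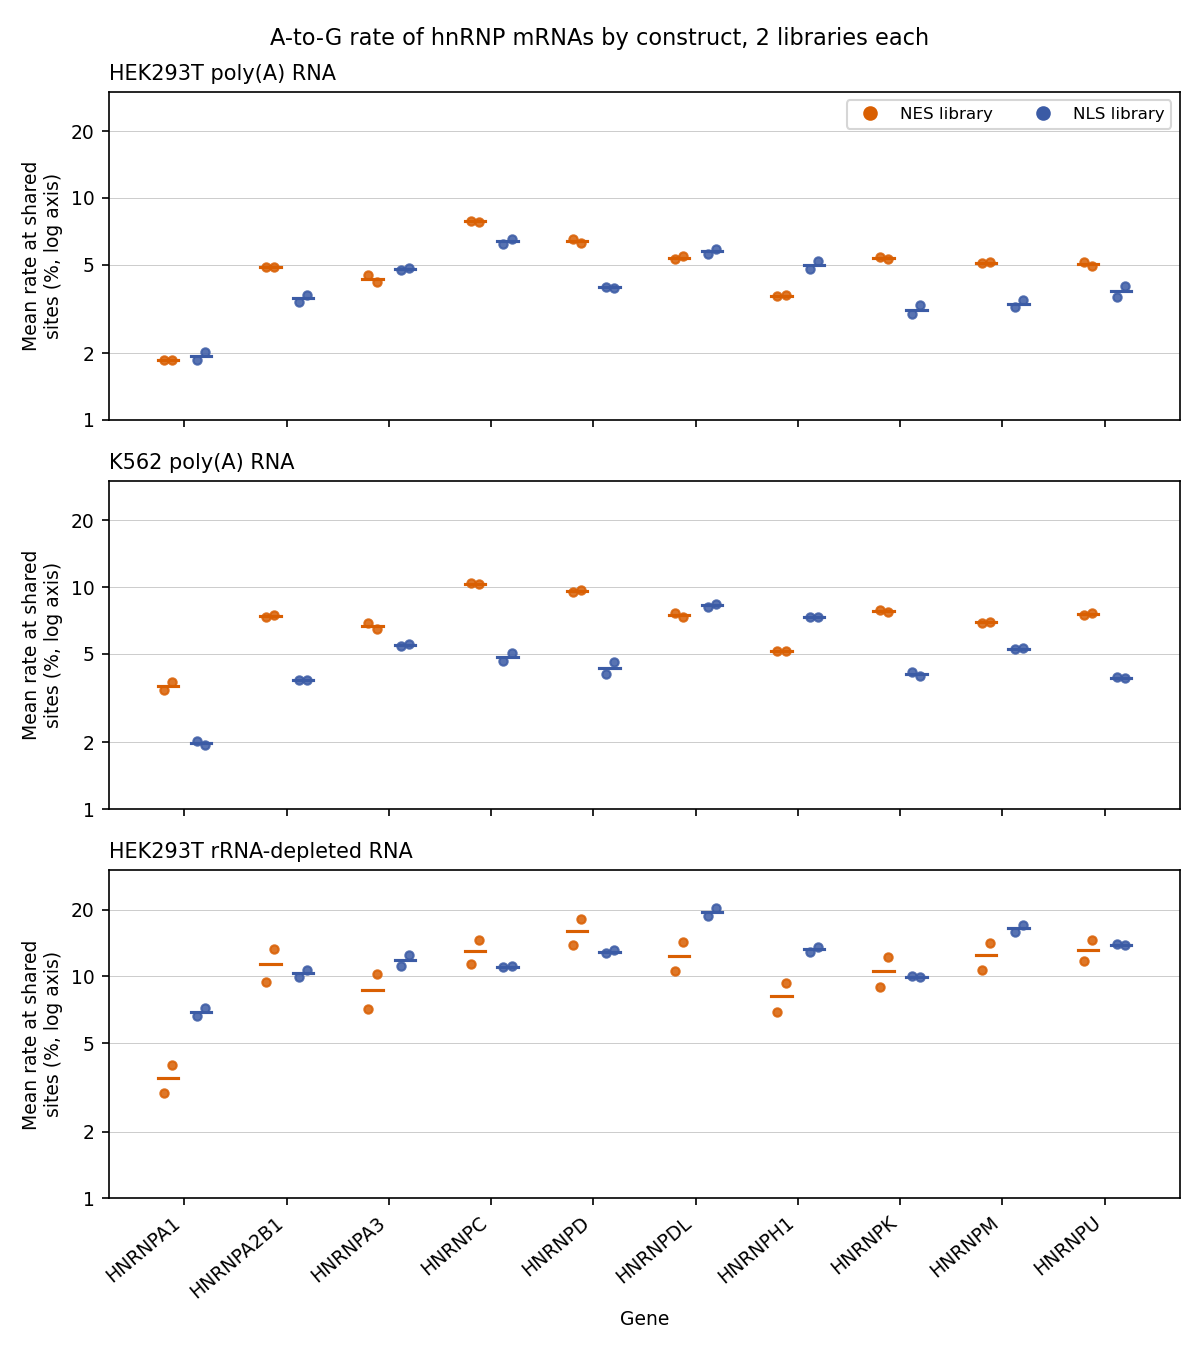
Mean rate over sites shared by NES and NLS (log axis, %) for each member in the 2 libraries of each construct, with the mean as a bar, in the 3 kinds of RNA. NLS points lie above NES points for HNRNPH1 and HNRNPDL in each panel, and HNRNPA1 changes order between HEK293T and K562.

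The choice of sites mattered for HNRNPK. When every called site of each construct was averaged, the set-apart NLS sites included, its change was -1.09 and not 0.15, and HNRNPH1 stayed lower. The HNRNPK call was also absent with the median or the log2 mean of site rates and with no variance trend, where 0 members were called higher. Site by site, the rates of the 2 constructs followed each other: over shared HEK293T sites the log2 rates of NES and NLS correlated with r from 0.81 (HNRNPA3, 410 sites, and HNRNPH1, 333 sites) to 0.90 (HNRNPC, 519 sites), sites that share libraries, sequence and transcript. Replicate libraries gave r from 0.88 (HNRNPA3) to 0.97 with NES and from 0.95 to 0.98 with NLS over the same sites. In K562 the r of NES and NLS ran from 0.70 (HNRNPH1, 268 sites) to 0.85. HNRNPH1 had the fewest shared sites with a higher rate with NES as deposited, 32.7% of 333, against 77.0% of 435 for HNRNPK and 76.9% of 398 for HNRNPA2B1.

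In K562 poly(A) RNA all 10 members passed the same test, 6 higher and 4 lower with NES than with NLS, where 40.5% of 6523 genes were higher and 34.6% lower. Without centring the median gene was 0.72 higher with NES, and 8 members were higher and 2 lower, beside 80.2% and 5.89% of all genes. HNRNPH1 read 5.16% and 5.16% with NES and 7.34% and 7.35% with NLS over 268 sites, and HNRNPDL 7.65% and 7.35% with NES and 8.15% and 8.40% with NLS over 259 sites. Both were lower with NES under either scaling, at -1.18 ± 0.03 for HNRNPH1 (limma adjusted p = 1.2e-09) and -0.81 ± 0.03 for HNRNPDL (limma adjusted p = 1.5e-08). HNRNPA3 (-0.39 ± 0.03) and HNRNPM (-0.28 ± 0.03) were lower relative to the median gene, and higher as deposited (0.28 and 0.39). HNRNPD (0.48 ± 0.04) and HNRNPC (0.43 ± 0.03) were the most raised members, followed by HNRNPA2B1 (0.29), HNRNPU (0.28), HNRNPK (0.27) and HNRNPA1 (0.18). HNRNPA1 no longer passed without the second NES library (0.12, limma adjusted p = 0.06). With every called site of each construct averaged, 2 members were higher and 8 lower, and HNRNPA1 was at -1.82.

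HNRNPA1 differed most between the lines. Over 253 sites called in all 4 groups it averaged 3.88% and 4.19% with NES and 2.11% and 2.02% with NLS in K562, against 1.92% and 1.87% with NES and 1.88% and 2.06% with NLS in HEK293T. The NES libraries of K562 stood above all others, and the NLS libraries of the lines were close to each other. The difference of the 2 changes was 0.92 ± 0.06 (limma adjusted p = 4.3e-09), with 99.2% of 5184 genes lower. In all, 5 members differed toward NES in K562 and 3 toward NLS, where 21.4% and 15.0% of genes did so (without centring 6 members and 1, and 29.2% and 8.70% of genes). HNRNPC (0.44 ± 0.05), HNRNPA2B1 (0.44 ± 0.04), HNRNPD (0.32 ± 0.06) and HNRNPU (0.24 ± 0.04) were the others toward NES, and HNRNPM (-0.32 ± 0.04), HNRNPH1 (-0.20 ± 0.04) and HNRNPDL (-0.16 ± 0.05) were those toward NLS. HNRNPDL did not pass without 4 of the 8 libraries, each left out alone: the second NES library of K562 (-0.12, limma adjusted p = 0.14), its second NLS library (-0.14, 0.059), the second NES library of HEK293T (-0.14, 0.081) or its first NLS library (-0.13, 0.062). The difference of HNRNPA3 (0.13 ± 0.05, limma adjusted p = 0.052) did not pass, but did without the second NES library of K562 (0.18, 0.017), without the first NES library of HEK293T (0.18, 0.022), with the replicate block (0.13, 0.035), as deposited (0.23, 0.0042) and with every called site averaged (0.29, 0.0011). That of HNRNPK (0.04 ± 0.05, limma adjusted p = 0.56) passed with every called site averaged (0.56, 2e-07).

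**Figure D4:**
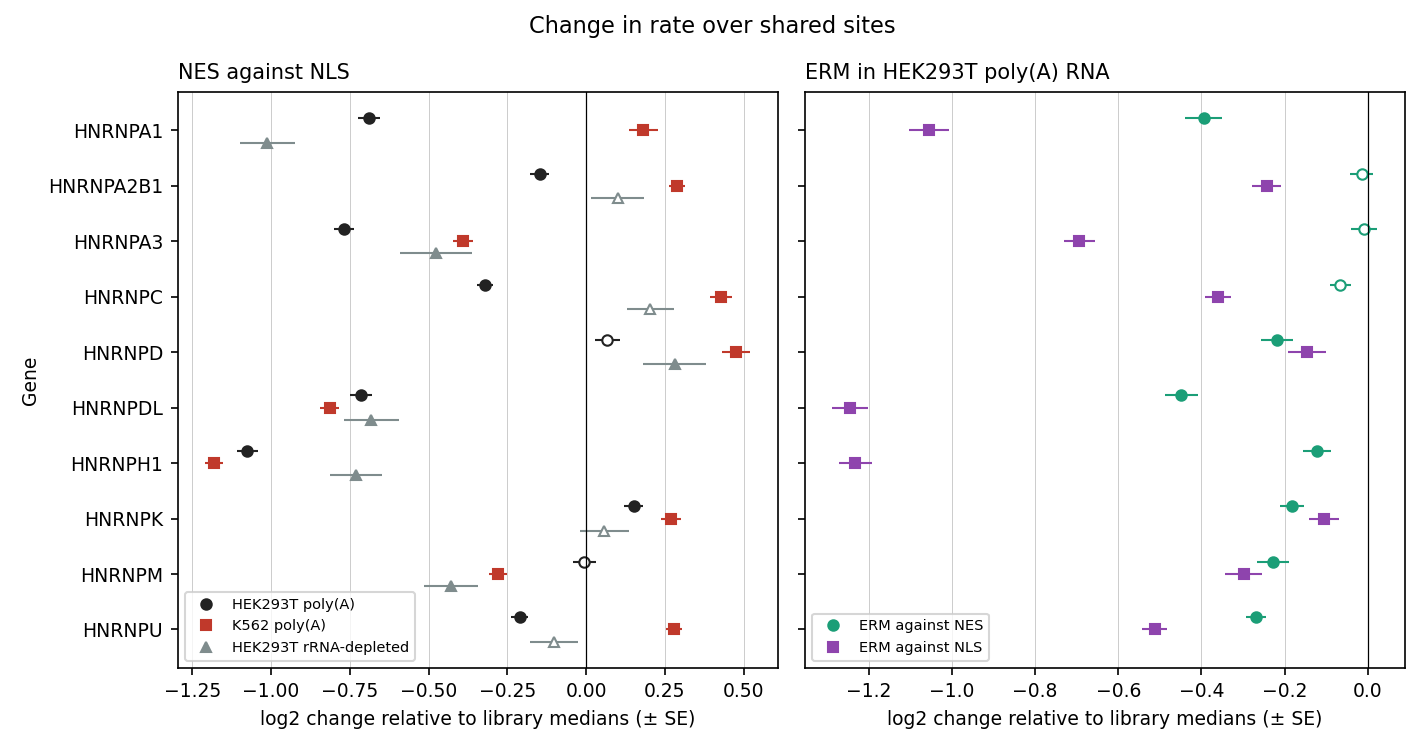
Log2 change of each member's rate over shared sites, relative to the library medians, with its SE. Left, NES against NLS in the 3 kinds of RNA; right, ERM against NES and against NLS in HEK293T poly(A) RNA. Filled symbols passed the adjusted threshold of 0.05 and open ones did not. HNRNPH1 and HNRNPDL lie at -0.68 or below in all 3 kinds of RNA on the left, and every ERM against NLS change lies below 0.

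In rRNA-depleted HEK293T RNA, 5 members were lower and 1 was higher with NES than with NLS after centring, where 14.6% of 5357 genes were lower and 13.6% higher. Without centring 2 were lower and 0 higher in limma (4 and 0 at an unadjusted p under 0.05), beside 3.51% and 1.23% of genes, and the NES libraries differed from each other as a whole, as their mean rates above show. HNRNPA1 read 2.99% and 4.00% with NES and 6.61% and 7.22% with NLS over 91 sites, a change of -1.01 ± 0.09 (limma adjusted p = 6.7e-07; 0.0019 without centring). HNRNPH1 read 6.91% and 9.36% with NES and 12.9% and 13.5% with NLS over 125 sites, a change of -0.73 ± 0.08 (limma adjusted p = 8.5e-06; 0.049 without centring). For both genes the NLS libraries lay above the NES libraries. HNRNPDL (-0.68 ± 0.09) read 10.6% and 14.3% with NES and 18.8% and 20.3% with NLS, and HNRNPM (-0.43 ± 0.08) read 10.7% and 14.2% with NES and 15.9% and 17.0% with NLS. HNRNPA3 (-0.48 ± 0.12, over 29 sites) and HNRNPD (0.28 ± 0.10, over 40 sites) rested on fewer positions. Without the second NLS library HNRNPA3 (-0.40, limma adjusted p = 0.11), HNRNPM (-0.39, 0.087) and HNRNPD (0.29, 0.21) did not pass, and HNRNPD did not pass without the first NLS library (0.27, 0.24) or the second NES library (0.26, 0.076) either. HNRNPC (0.20 ± 0.08, limma adjusted p = 0.052) passed without either NES library, at 0.21 (limma adjusted p = 0.0023) and 0.20 (limma adjusted p = 0.0033). HNRNPA2B1 (0.10 ± 0.08) and HNRNPU (-0.10 ± 0.08) did not pass, but did without the first NES library, at 0.17 (limma adjusted p = 0.048) and -0.12 (limma adjusted p = 0.049), and HNRNPK (0.06 ± 0.08) did not pass, whichever library was left out. With every called site averaged, 8 members were lower and 0 higher, among them HNRNPA2B1 (-0.64), HNRNPK (-0.62) and HNRNPU (-0.37), and HNRNPC and HNRNPD were not called.

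Over sites called in both kinds of HEK293T RNA, 3 members differed in their NES against NLS change. HNRNPA1 was further toward NLS in rRNA-depleted than in poly(A) RNA (-0.51 ± 0.09, limma adjusted p = 0.00053), and so was HNRNPM (-0.35 ± 0.09, limma adjusted p = 0.0055). HNRNPH1 was less so (0.39 ± 0.09, limma adjusted p = 0.0022). Of 4252 genes, 18.9% were further toward NLS and 17.1% less so. With only the fitted changes centred none of the 3 passed, at -0.49 for HNRNPA1 (limma adjusted p = 0.17), 0.41 for HNRNPH1 (0.24) and -0.33 for HNRNPM (0.35). With every called site averaged HNRNPA1 had the opposite sign (0.60, limma adjusted p = 0.00086). As deposited the median gene differed by -0.68, HNRNPH1 had the opposite sign (-0.26, limma adjusted p = 0.29), and limma called 8 members further toward NLS and 0 less so (9 and 0 at an unadjusted p under 0.05), beside 58.3% and 0.729% of genes. Leaving out the first NES library of rRNA-depleted RNA brought in HNRNPA2B1 (0.23, limma adjusted p = 0.012), and leaving out the second brought in HNRNPK (-0.20, limma adjusted p = 0.0063). The HNRNPA1 rates behind the difference were 2.99% and 4.00% with NES and 6.61% and 7.22% with NLS in rRNA-depleted RNA, against 3.15% and 3.09% with NES and 2.68% and 2.86% with NLS in poly(A) RNA.

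With the enzyme at the endoplasmic reticulum membrane, no member was raised over shared sites. Against NES, 7 members were lower with ERM and 0 higher relative to the median gene, where 23.5% of 6884 genes were lower and 12.6% higher (limma; at an unadjusted p under 0.05 the counts were 8 and 0). In the uncentred rates all 10 were lower, as were 91.2% of genes, with 0.0726% higher, and the median gene was at -0.66. HNRNPDL read 3.69% and 3.60% with ERM and 7.64% and 7.94% with NES over 150 sites (-0.45 ± 0.04, limma adjusted p = 2.6e-06), and HNRNPA1 read 1.55% and 1.41% with ERM and 3.03% and 3.05% with NES over 140 sites (-0.39 ± 0.05, limma adjusted p = 2.3e-05). HNRNPU (-0.27), HNRNPM (-0.23), HNRNPD (-0.22), HNRNPK (-0.18) and HNRNPH1 (-0.12) were also lower, and HNRNPH1 lost the call without the second ERM library (-0.12, limma adjusted p = 0.055) or the second NES library (-0.11, limma adjusted p = 0.1). HNRNPC (-0.07, limma adjusted p = 0.055), HNRNPA2B1 (-0.01) and HNRNPA3 (-0.01) were not called. HNRNPC (-0.26, limma adjusted p = 3.4e-06) and HNRNPA2B1 (-0.43, 2.3e-10) were called lower with the median of site rates, where HNRNPA3 was at 0.12. Both were also called lower with the mean of log2 site rates (-0.32, limma adjusted p = 4.9e-09, and -0.27, 2.5e-07). Averaging every called site gave the same calls (-0.22, limma adjusted p = 6.3e-06, and -0.12, 0.0043). With no variance trend 3 members were called lower, and with every called site averaged 1 (HNRNPM, 0.19) was called higher.

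Against NLS, all 10 members were lower with ERM, where 31.3% of 5826 genes were lower and 32.3% higher. In the uncentred rates 7 were lower and 0 higher in limma (8 and 0 at an unadjusted p under 0.05), with 22.5% and 40.5% of genes, and the median gene was at 0.13. HNRNPDL (-1.25 ± 0.04, limma adjusted p = 3.6e-16) read 3.69% and 3.60% with ERM and 7.73% and 8.18% with NLS. HNRNPH1 (-1.23 ± 0.04, limma adjusted p = 1.3e-16) read 3.17% and 3.08% with ERM and 6.49% and 7.03% with NLS, and HNRNPA1 (-1.06 ± 0.05, limma adjusted p = 3.2e-14) read 1.53% and 1.39% with ERM and 2.68% and 2.91% with NLS. For these 3 the ERM libraries were far below the NLS libraries, and 3.33% or fewer of all genes were lower. HNRNPA3 (-0.69), HNRNPU (-0.51), HNRNPC (-0.36), HNRNPM (-0.30) and HNRNPA2B1 (-0.24) came next. HNRNPD (-0.15) and HNRNPK (-0.11) were nearest to the median gene. HNRNPK, whose libraries overlapped (4.31% and 4.09% with ERM, 3.98% and 4.35% with NLS), was at 0.01 as deposited and not called without the second ERM library (-0.08, limma adjusted p = 0.12) or the second NLS library (-0.07, limma adjusted p = 0.13). HNRNPD lost the call without the first ERM library (-0.12, limma adjusted p = 0.072) or the first NLS library (-0.11, limma adjusted p = 0.074). With every called site averaged, HNRNPM (0.18) was called higher than with NLS. The ERM comparisons share the ERM libraries with each other and the NES and NLS libraries with the comparison of those 2 constructs.

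Within a construct, K562 was set against HEK293T over sites called in both lines. With NES, 4 members were higher in K562 and 3 lower relative to the median gene, beside 21.7% and 27.6% of 7272 genes, and as deposited 10 were higher and 0 lower in limma (10 and 0 at an unadjusted p under 0.05), beside 73.8% and 2.28% of genes, with the median gene at 0.35. HNRNPA1 read 3.65% and 3.93% in K562 and 1.80% and 1.76% in HEK293T over 274 sites, a change of 0.71 ± 0.04 (limma adjusted p = 2.4e-06), with 98.5% of genes lower. HNRNPD (0.33 ± 0.03), HNRNPA3 (0.19 ± 0.03) and HNRNPA2B1 (0.17 ± 0.02) were the other higher ones. HNRNPC (-0.11), HNRNPH1 (-0.08) and HNRNPU (-0.06) were lower by small amounts and higher as deposited (0.27, 0.30 and 0.31). HNRNPH1 lost the call without the first K562 library (-0.09, limma adjusted p = 0.12) or the second (-0.08, limma adjusted p = 0.15), and HNRNPU without the first K562 library (-0.05, limma adjusted p = 0.13) or the first HEK293T library (-0.05, limma adjusted p = 0.052). None of these 3 was called lower with no variance trend or with every called site averaged.

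With NLS, 2 members were higher in K562 and 5 lower relative to the median gene, beside 17.3% and 25.3% of 5675 genes, and as deposited 6 were higher and 2 lower, beside 48.6% and 6.93%, with the median gene at 0.23. HNRNPM read 5.42% and 5.47% in K562 and 3.34% and 3.62% in HEK293T over 275 sites (0.39 ± 0.04, limma adjusted p = 1.8e-07). HNRNPC read 4.69% and 5.06% in K562 and 5.82% and 6.18% in HEK293T over 322 sites (-0.56 ± 0.04, limma adjusted p = 5e-10), and HNRNPA2B1 read 6.24% and 6.00% in K562 and 6.62% and 6.95% in HEK293T over 523 sites (-0.41 ± 0.03, limma adjusted p = 3.2e-09). The lines did not overlap in these 3 genes, but as deposited they overlapped in no member. That held also for HNRNPA3 (limma adjusted p = 0.78) and HNRNPD (0.91), which were not called. HNRNPC and HNRNPA2B1 were lower in K562 as deposited too (-0.30 and -0.15). HNRNPA1 (-0.22), HNRNPU (-0.17) and HNRNPK (-0.10) were lower after centring and not as deposited (0.04, 0.09 and 0.16). HNRNPK lost the call without the first K562 library (-0.09, limma adjusted p = 0.17), the second K562 library (-0.11, limma adjusted p = 0.11) or the second HEK293T library (-0.07, limma adjusted p = 0.17). HNRNPH1 (0.08) lost it without the first K562 library (0.08, limma adjusted p = 0.15), the second K562 library (0.08, limma adjusted p = 0.15) or the first HEK293T library (0.05, limma adjusted p = 0.2). HNRNPDL gained a call without the second HEK293T library (0.10, limma adjusted p = 0.032).

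Single positions show how far the constructs could part at one adenosine. For each member the shared site of HEK293T poly(A) RNA with the largest ratio each way was taken among those at 10% or more in the higher construct. In HNRNPH1, position 179619351 of chromosome 5, which lies next to the 1501-base stretch of NLS sites, read 1.92% and 2.32% with NES and 20.6% and 24.1% with NLS. HNRNPDL read 3.10% and 3.17% with NES and 22.5% and 22.9% with NLS at position 82429420 of chromosome 4. Both NLS libraries were far above both NES libraries at these bases. In the other direction, HNRNPD read 20.2% and 20.8% with NES and 2.37% and 2.16% with NLS at position 82356623 of chromosome 4, and HNRNPU 35.0% and 33.0% with NES and 4.18% and 3.93% with NLS at position 244855459 of chromosome 1. Among the HNRNPK sites at 10% or more, the largest NLS excess was 22.4% and 23.1% with NLS beside 15.8% and 17.0% with NES. Shared sites under 10% in both constructs were not searched. The strongest shared site of all members was in HNRNPC, position 21262963 of chromosome 14, with 61.3% and 59.5% with NES and 68.0% and 75.7% with NLS. These sites were picked for their values and carry no test.

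One site fell in a microRNA gene inside HNRNPK. MIR7-1, the source of miR-7, a regulator of growth factor signalling, lies in HNRNPK at chr9:83969748-83969857 on the minus strand. A site named with both HNRNPK and MIR7-1, and so not counted among the member's sites, lay at position 83969799 and was called with NLS in HEK293T poly(A) RNA only, at 34.0% and 30.8%. It stood in the 18 bases between the arms of the hairpin, 12 bases after the end of the 5p arm and 7 bases before the 3p arm. Its rate was not particular to the hairpin. Other HNRNPK sites within 200 bases of MIR7-1 were called with NLS in HEK293T poly(A) RNA, at means from 16.7% to 35.0%. Those at positions 83969624 and 83969728 were also called with NLS in K562. The mature arms, from RefSeq on GRCh38.p14, are shown with their seeds in capitals to place the site between them.
hsa-miR-7-5p: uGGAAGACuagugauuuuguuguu
hsa-miR-7-1-3p: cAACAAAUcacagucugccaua

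Other genes of the family gave a different count. Of 22 other genes of hnRNPs and their relatives, 21 could be tested in HEK293T poly(A) RNA, and 11 were higher with NES than with NLS, 6 lower and 4 not called, with a median change of 0.14. As deposited 19 were higher and 0 lower in limma (19 and 0 at an unadjusted p under 0.05). SYNCRIP (hnRNP Q, -0.36 ± 0.03), HNRNPH3 (-0.29 ± 0.04) and PCBP2 (-0.10 ± 0.04) were lower relative to the median gene. All were higher with NES as deposited (0.26, 0.33 and 0.52). RBMX (0.06 ± 0.03) was not called. PTBP1, the polypyrimidine tract binding protein (0.19 ± 0.04), and HNRNPR (0.14 ± 0.04) were higher. In K562, 14 of 20 were higher and 4 lower (median 0.19), with SYNCRIP (-0.15 ± 0.02) and HNRNPH3 (-0.21 ± 0.03) again lower after centring and higher as deposited (0.52 and 0.47), where 18 were higher and 2 lower. In rRNA-depleted RNA 2 of 19 were higher and 0 lower in limma (4 and 1 at an unadjusted p under 0.05), and as deposited 0 passed either way (0 and 0 at an unadjusted p under 0.05). With ERM, 1 of 20 was higher and 11 lower than with NES, and 6 of 20 were higher and 8 lower than with NLS. The uncentred counts were 0 higher and 20 lower than with NES (limma; 0 and 20 at an unadjusted p under 0.05), and 7 higher and 6 lower than with NLS. No test of a difference between these genes and the 10 members was made.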

How the data were processed

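The authors' deposited tables of poly(A) RNA (HEK293T, K562) and rRNA-depleted RNA (HEK293T) were used, with 2 libraries per construct. Per the submitters' processing notes, the build was hg38 and cutadapt, STAR, Bowtie2 and SAMtools were used, with no versions. How sites were called is not given in the sources used here. Each deposited fraction is the share of reads showing G at a site in a library. The deposited p-value columns, already adjusted by the authors, were at most 0.05 in both libraries at every listed site. No counts stand beside them, so depth is unknown.

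Fractions were averaged per gene and library over the sites called for every construct compared. Their log2 values were centred on each library's median gene and fitted with limma 3.58.1 (R 4.3.3), two-sided, on the groups compared only, over all genes with at least 5 such sites. The variance was trended on the log2 number of sites, and p was adjusted by Benjamini-Hochberg over all genes (threshold 0.05). Values as deposited are uncentred. The script was tested on simulated data. How the authors treated reads that also match processed pseudogenes, which HNRNPA1, HNRNPA3 and HNRNPC have, is not stated, so their rates are uncertain to that extent.

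The members and lists were chosen with earlier results of these data known. One listed marker gene is not reported here. The rule for named genes took all 10 members, at most 6 other hnRNP genes by most shared sites, and for each member its strongest site and the shared sites with the largest ratio each way. Alternatives were no centring, centring of fitted changes, median or log2-mean site rates, minimums of 1 and 10 sites, an authors' adjusted p under 0.01, all sites of each construct, no variance trend, a replicate block and leaving out each library. Site tables were read with pandas 2.3.3 in Python 3.11.15, and figures drawn with matplotlib 3.10.9.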

Additional observations from a re-analysis of the deposited data

Results flagged for a closer look

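The NES against NLS change of 8 members differed between K562 and HEK293T by limma's interaction term. The difference was 0.92 for HNRNPA1 (adjusted p = 4.3e-09), 0.44 for HNRNPA2B1 (7.5e-07), 0.44 for HNRNPC (2.4e-06), 0.32 for HNRNPD (0.00066) and 0.24 for HNRNPU (0.00018), each toward NES in K562. It was -0.32 for HNRNPM (2.9e-05), -0.20 for HNRNPH1 (0.0021) and -0.16 for HNRNPDL (0.019), each toward NLS in K562. By the same term, 3 members differed between rRNA-depleted and poly(A) RNA of HEK293T, at -0.51 for HNRNPA1 (adjusted p = 0.00053), 0.39 for HNRNPH1 (0.0022) and -0.35 for HNRNPM (0.0055). With only the fitted changes centred none of these 3 passed, and with every called site averaged HNRNPA1 turned to 0.60.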

How the results depend on the processing

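The number of genes called stayed within 1.5 times the count in the text under most settings. Exceptions without centring were 6284 for ERM against NES, 254 for rRNA-depleted NES against NLS, 5534 for K562 against HEK293T with NES and 2511 for the difference between kinds of RNA. With only the fitted changes centred they were 251 for rRNA-depleted RNA and 261 for that difference. With the median of site rates they were 1079 for the difference between lines and 1001 for that between kinds of RNA, and 1610 with no variance trend for ERM against NES. The cause was not tested.

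Members called changed in number as follows, higher and lower named each time. Without centring, NES against NLS gave 6 higher and 2 lower in HEK293T, 2 lower in K562, and 0 higher and 2 lower in rRNA-depleted RNA; K562 against HEK293T gave 10 higher and 0 lower with NES and 6 higher and 2 lower with NLS; the difference between lines gave 1 lower and that between kinds of RNA 0 higher and 8 lower. Centring only the fitted changes gave 0 higher and 2 lower in rRNA-depleted RNA, 1 lower for K562 against HEK293T with NES, and 0 higher and 0 lower for the difference between kinds of RNA. NES against NLS in HEK293T gave 0 higher with the median of site rates, with the mean of log2 site rates, with all sites of each construct and with no variance trend, and 2 higher with no filter on sites. In rRNA-depleted RNA, 0 were higher with the median of site rates, no filter, at least 10 shared sites, all sites of each construct (8 lower) or no variance trend. All sites of each construct gave 1 higher with ERM than with NES, 1 higher with ERM than with NLS, 2 higher and 8 lower for NES against NLS in K562, 9 higher and 0 lower for K562 against HEK293T with NES, 1 lower for the difference between lines, and 4 higher and 1 lower for that between kinds of RNA. No variance trend gave 3 lower for ERM against NES, 0 lower for K562 against HEK293T with NES, 1 higher and 2 lower with NLS, and 1 lower for the difference between lines; no filter gave 1 higher for K562 against HEK293T with NLS.

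The direction of single members turned under these settings. Without centring the NES against NLS change in HEK293T was 0.47 for HNRNPA2B1, 0.30 for HNRNPC, 0.62 for HNRNPM and 0.41 for HNRNPU, and in K562 0.28 for HNRNPA3 and 0.39 for HNRNPM. ERM against NLS became 0.014 for HNRNPK. K562 against HEK293T became 0.27 for HNRNPC, 0.30 for HNRNPH1 and 0.31 for HNRNPU with NES, and 0.039 for HNRNPA1, 0.16 for HNRNPK and 0.088 for HNRNPU with NLS. The difference between kinds of RNA became -0.26 for HNRNPH1. With the median of site rates NES against NLS became -0.14 for HNRNPD and -0.047 for HNRNPK in HEK293T, -0.071 for HNRNPK in K562, and -0.094 for HNRNPA2B1 and -0.018 for HNRNPK in rRNA-depleted RNA, and ERM against NES became 0.12 for HNRNPA3. With all sites of each construct NES against NLS became -0.043 for HNRNPD, -1.09 for HNRNPK and 0.0079 for HNRNPM in HEK293T, -1.82 for HNRNPA1, -0.39 for HNRNPA2B1, -0.52 for HNRNPK and -0.26 for HNRNPU in K562, and -0.64 for HNRNPA2B1, -0.058 for HNRNPC, -0.058 for HNRNPD and -0.62 for HNRNPK in rRNA-depleted RNA. With these sites the ERM changes of HNRNPM became 0.19 against NES and 0.18 against NLS, K562 against HEK293T became 0.18 for HNRNPH1 and 0.079 for HNRNPU with NES and 0.056 for HNRNPU with NLS, the difference between lines became 0.053 for HNRNPDL and 0.15 for HNRNPH1, and that between kinds of RNA 0.60 for HNRNPA1. By its construction this setting adds the sites called with one construct only. Changes near 0 turned elsewhere: HNRNPA2B1 to 0.010 with the mean of log2 site rates and HNRNPM to 0.070 with no filter (NES against NLS, HEK293T), and for ERM against NES HNRNPA3 to 0.0058 with the fitted changes centred and HNRNPA2B1 to 0.010 and HNRNPA3 to 0.016 with at least 10 shared sites.

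With single libraries left out, members called ran from 1 to 2 higher for NES against NLS in HEK293T, from 0 to 3 higher and 3 to 6 lower in rRNA-depleted RNA (593 to 1531 genes), from 1 to 3 lower for K562 against HEK293T with NES (2136 to 3849 genes), from 1 to 3 higher with NLS, and from 1 to 2 higher for the difference between kinds of RNA. In such fits HNRNPM (NES against NLS, HEK293T) ran from -0.029 to 0.016, and for ERM against NES HNRNPA3 ran from -0.029 to 0.012 and HNRNPA2B1 from -0.033 to 0.0038. In them the lone library is assumed to vary like the other group. Deviations of same-numbered libraries, taken gene by gene after centring, had correlations from -0.04 to 0.09. Centring removes a shift common to a whole library, so these values cannot show whether the number is a pairing. With the replicate block K562 against HEK293T with NLS had 1 member higher, without HNRNPH1 (limma adjusted p = 0.066). That comparison had 4 lower, without HNRNPK (limma adjusted p = 0.06), and the difference between lines had 6 members higher. No other count of members called moved under the block. The alternative with exonic sites only was not run, because no exon annotation was used here.

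Set-apart shares used 100 bases; distances of 50 and 200 bases were chosen after seeing the data. In HEK293T poly(A) RNA they gave 47.3% and 23.5% for HNRNPH1, 35.5% and 20.3% for HNRNPA1, 22.3% and 7.39% for HNRNPA2B1, 20.3% and 5.69% for HNRNPDL, 15.8% and 7.89% for HNRNPK, and 0 for HNRNPC and HNRNPM at both. Depth is unknown for every value, so an adenosine that is not listed was not shown to be unchanged.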
